A study of Homo sapiens with 54 samples.

Results

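Homologous recombination copies a broken DNA end back together from an intact sister chromatid, and the Fanconi anemia pathway unhooks crosslinks between the strands so that recombination can finish the repair. Broken ends are first trimmed to single strands, RPA coats them, BRCA1, PALB2 and BRCA2 load the recombinase, and helicases and nucleases then take the joined molecules apart. Cisplatin (CDDP) makes such crosslinks, and olaparib traps PARP-1 on DNA and leaves lesions that recombination repairs, so that cells without working BRCA1 or BRCA2 are known to be sensitive to both drugs. Given here are the transcripts of 43 genes of these pathways, chosen by symbol from a list of their known roles and not by a measured value, of 27470 genes in the deposited table. Earlier results of these data were known when the choice was made. All 43 were found and all 43 passed the filter on low values in both lines.

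Transcripts were read from their 3′ ends in 54 libraries of 2 triple negative breast cancer (TNBC) lines, SUM1315, which is BRCA1 mutant, and MDA-MB-468, which is BRCA1 wild type. The authors reported that sensitivity to olaparib and CDDP did not follow BRCA1 status in the lines they tested. MDA-MB-468 cells tolerated less of both drugs than SUM1315 cells. Each line had 9 conditions of 3 libraries. Parental cells were left untreated or treated overnight with olaparib (8 µM in SUM1315, 3 µM in MDA-MB-468), with CDDP at a lower or a higher dose (2 or 4 µM in SUM1315, 1 or 2.5 µM in MDA-MB-468), or with olaparib and either CDDP dose. Olaparib resistant (OlaR) cells, grown out from each line under rising olaparib, were kept in 25 µM (SUM1315) or 15 µM (MDA-MB-468) olaparib, and were taken without further drug or with 1 of the 2 CDDP doses added. OlaR cells were therefore never free of olaparib, and the parental cells treated with olaparib are used here as their comparison, at a lower dose and after 1 night instead of a long culture. The sources describe 1 OlaR line from each parental line, so that resistance and any other change of that culture cannot be told apart.

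Levels are given as adjusted read counts, which are reads per gene scaled by the authors to a common library size of 5585170 reads. Depth was 2070301 to 9268162 reads per library and was lowest in the OlaR cells. Fold changes were tested on log2 of the adjusted read count plus 1 by limma in all 27 libraries of a line, and a gene is said to have risen or fallen where its p-value, adjusted over all genes tested by the Benjamini-Hochberg method, was at or under 0.05. The libraries of a condition are not stated to be separate cultures, so that the p-values measure the spread between these libraries, which may be technical. A lack of overlap between the 3 libraries of 2 conditions, which is stated below where it was seen, was found for 18.9 to 56.2% of all genes tested, depending on the comparison. The lines were compared only through the responses within each of them. SUM1315 libraries had 0 to 5 reads of EPCAM and 0 to 3 of CDH1 with 5081 to 15544 of vimentin (VIM), whereas MDA-MB-468 libraries had 1397 to 5339, 247 to 1599 and 9 to 74 reads of these genes. Not all markers followed this split. KRT18 had 168 to 616 reads in SUM1315 and 276 to 1191 in MDA-MB-468 libraries, and KRT8 had 17 to 189 and 221 to 1390. KRT5 had 0 to 17 and 347 to 3123, KRT14 2 to 33 and 3 to 28, and EGFR 244 to 1106 and 495 to 4184. The progesterone receptor PGR had at most 3 reads in any library. The estrogen receptor gene ESR1 had 0 to 25 reads in SUM1315 and 35 to 182 in MDA-MB-468 libraries, so that some ESR1 RNA was present in a line labelled triple negative. The receptor gene ERBB2 had 15 to 57 reads in SUM1315 and 4 to 71 in MDA-MB-468 libraries.

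In SUM1315 cells, CDDP alone raised most of the 43 genes. At 4 µM, 29 rose and 3 fell, whereas 22.2% of all genes tested rose and 21.7% fell. At 2 µM, 25 rose and 3 fell, against 19.4% and 14.5% of all genes. The median log2 fold change of the 43 genes was 0.82 at 2 µM and 0.79 at 4 µM, and that of all genes was within 0.01 of 0 at both doses. Of the 29 genes that rose at 4 µM, 17 rose at least 2-fold, as did 7.24% of all genes. All 4 genes of the BRCA complex, all 3 RPA subunits, 6 of 9 recombinase paralogs and mediators, 5 of 9 genes of the Fanconi core complex and 5 of 8 helicases and resolvases were among those that rose. In bulk libraries, a transcript present in more cells and more of it per cell cannot be told apart, and fewer cells of a type and less RNA per cell cannot either. The heat map of fold changes by role gives each gene in each contrast.

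**Figure D1:**
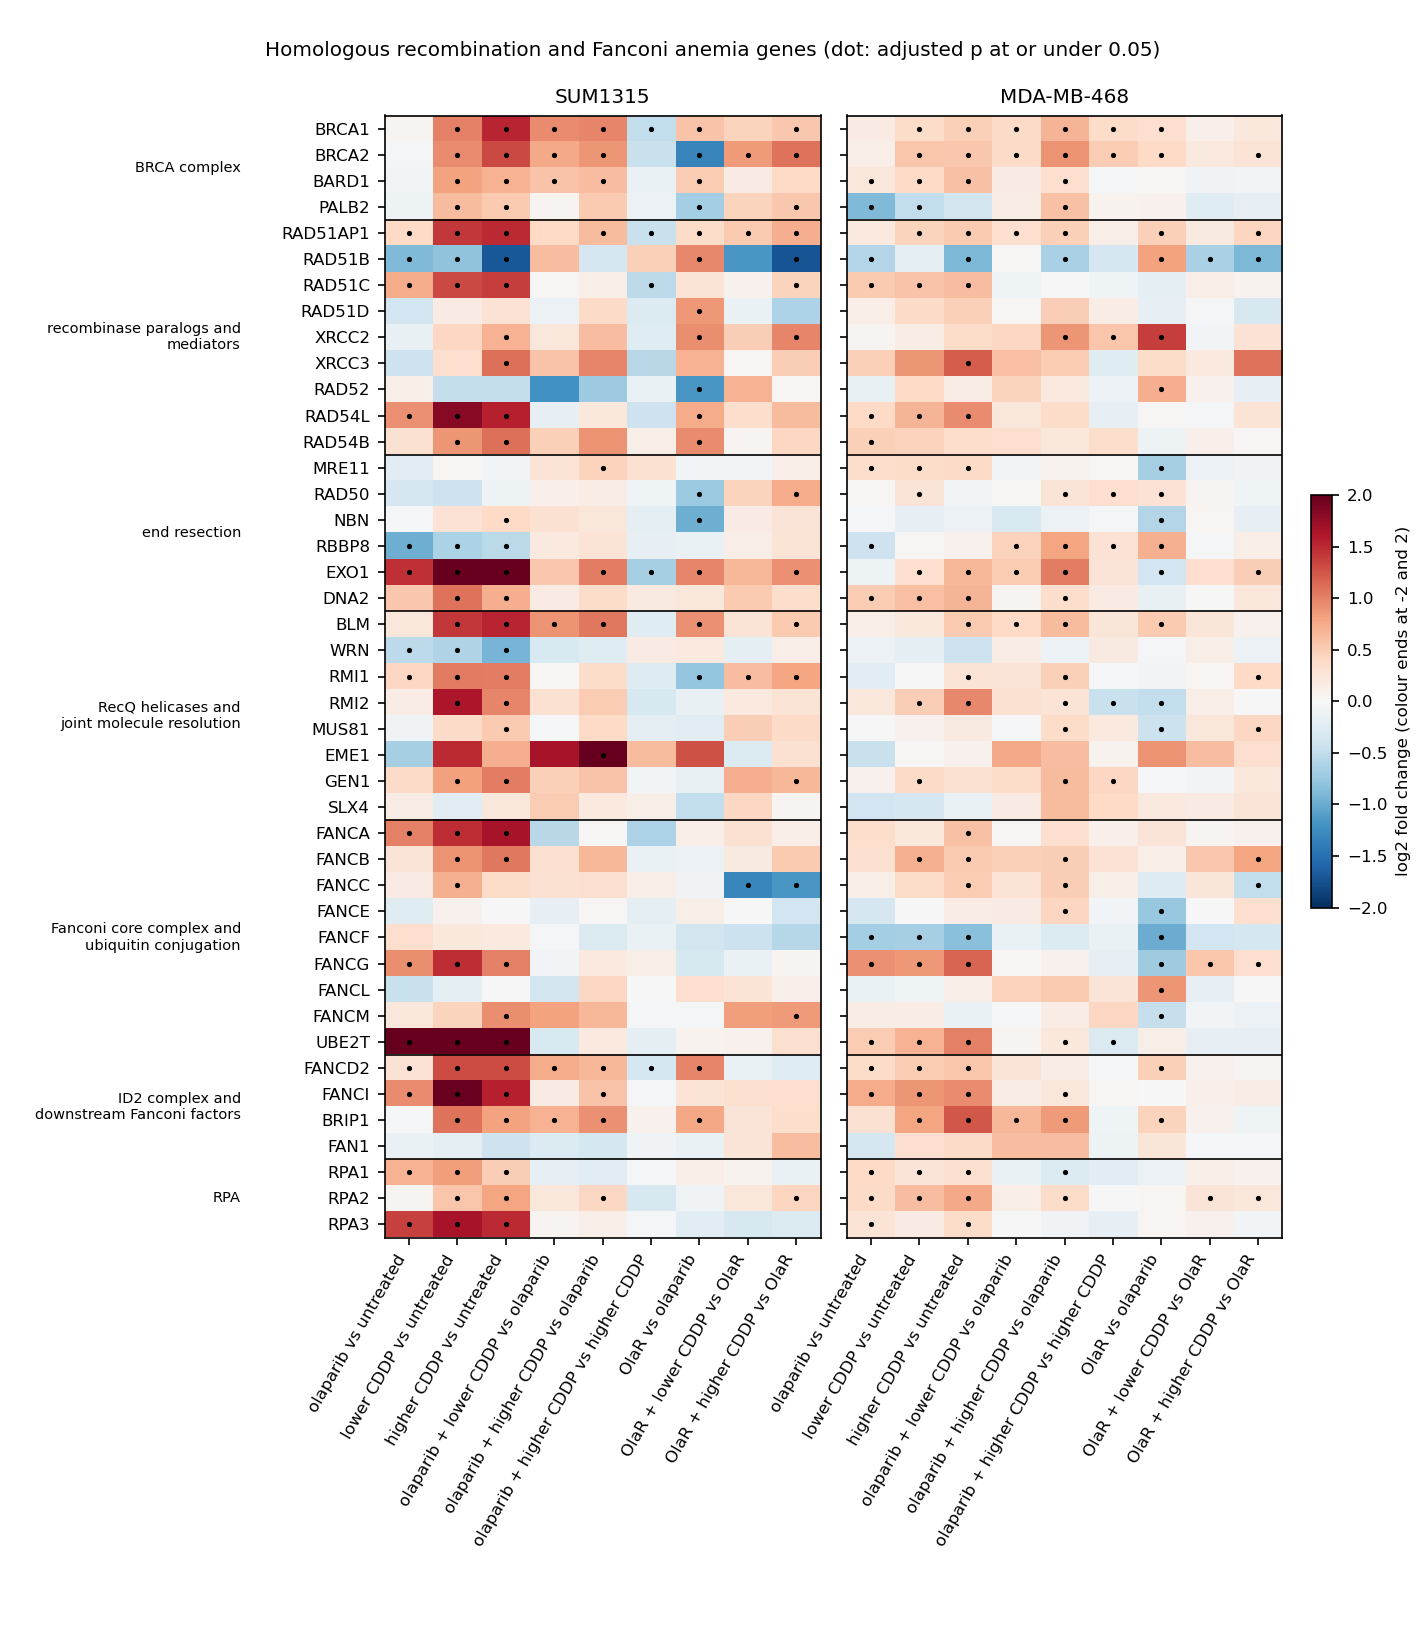
Log2 fold changes of the 43 genes (rows, grouped by role) in 9 contrasts (columns) in SUM1315 (left) and MDA-MB-468 cells (right), red for higher and blue for lower, with a dot where the adjusted p was at or under 0.05. The columns of CDDP alone hold most of the dark red of SUM1315, and OlaR columns mix both colours.

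The largest response was that of EXO1, the exonuclease that lengthens the trimmed single strand. Its adjusted read counts were 36.3, 29 and 15.7 in untreated SUM1315 cells, 137, 198 and 168 with 2 µM CDDP and 244, 235 and 224 with 4 µM. The levels of the conditions did not overlap and rose with each dose (limma log2 fold change 3.15, standard error 0.21, adjusted p = 6.06e-14 at 4 µM). UBE2T, which conjugates ubiquitin to FANCD2 and FANCI, was at 130, 181 and 61.4 untreated, 530, 668 and 434 with 2 µM and 547, 648 and 631 with 4 µM CDDP. All 6 treated libraries lay above the untreated ones, and the 2 doses overlapped (limma log2 fold change 2.42, standard error 0.21, adjusted p = 2.35e-11 at 4 µM). RPA3, the smallest subunit of the single strand binding complex, was at 334, 416 and 283 untreated, at 1075, 1188 and 961 with 2 µM and at 893, 1073 and 905 with 4 µM CDDP. The treated libraries again lay apart from the untreated ones and overlapped with each other (limma log2 fold change 1.65, standard error 0.11, adjusted p = 3.6e-13 at 2 µM). FANCI, which clamps onto DNA with FANCD2, was at 172, 205 and 137 untreated and reached 661, 853 and 517 with 2 µM and 503, 486 and 511 with 4 µM CDDP. Its libraries at the lower dose lay above those at the higher dose, and none overlapped with untreated cells (limma log2 fold change 1.97, standard error 0.14, adjusted p = 1.55e-12 at 2 µM).

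BRCA1 itself, a ubiquitin ligase that steers breaks to recombination, had 201, 202 and 279 adjusted read counts in untreated SUM1315 cells. It reached 406, 429 and 538 with 2 µM and 674, 647 and 621 with 4 µM CDDP, with no overlap between any of the 3 conditions (limma log2 fold change 1.52, standard error 0.13, adjusted p = 3.92e-11 at 4 µM). These 3′ reads count transcripts and do not show whether they encode the mutant or a working protein. BRCA2, which loads the recombinase, was at 148, 124 and 171 untreated, 243, 250 and 372 with 2 µM and 334, 365 and 403 with 4 µM CDDP. It was higher in all treated than in all untreated libraries, with overlap between the doses (limma log2 fold change 1.32, standard error 0.20, adjusted p = 3.03e-06 at 4 µM).

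Of the 43 genes, RBBP8, WRN and RAD51B fell with CDDP in SUM1315 cells, at both doses. RBBP8 encodes CtIP, which starts end resection, and went from 1229, 1090 and 1363 adjusted read counts in untreated cells to 780, 698 and 897 with 2 µM and 871, 806 and 836 with 4 µM CDDP. Untreated cells were above every treated library (limma log2 fold change -0.54, standard error 0.12, adjusted p = 0.000543 at 4 µM). The helicase WRN went from 291, 225 and 249 untreated to 174, 206 and 129 with the lower and 144, 137 and 118 with the higher dose (limma log2 fold change -0.93, standard error 0.18, adjusted p = 8.03e-05 at 4 µM). RAD51B, a recombinase paralog, went from 68.5, 51.8 and 62.1 untreated to 32.6, 24.9 and 49 with the lower and 22.6, 17.3 and 14.9 with the higher dose (limma log2 fold change -1.69, standard error 0.32, adjusted p = 5.26e-05 at 4 µM). At 2 µM the calls for WRN (adjusted p = 0.00912) and RAD51B (adjusted p = 0.0477) were each lost without untreated library 1, and that for RAD51B also without untreated library 3 or library 1 or 2 of the dose, and that for WRN without library 3 of the dose.

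MDA-MB-468 cells also raised these genes with CDDP, by smaller factors. At 2.5 µM, 24 genes rose and 2 fell, against 13.3% and 11.8% of all genes tested. At 1 µM, 20 rose and 2 fell, against 10.6% and 9.41%. The median log2 fold change was 0.37 at the lower and 0.39 at the higher dose. At the higher dose 4 genes rose at least 2-fold, as did 1.64% of all genes. UBE2T was at 444, 387 and 449 adjusted read counts untreated, 714, 686 and 675 with 1 µM and 838, 908 and 820 with 2.5 µM CDDP. The conditions were separate and ordered by dose (limma log2 fold change 1.00, standard error 0.08, adjusted p = 2.18e-14 at 2.5 µM). FANCI went from 264, 274 and 287 untreated to 542, 501 and 493 with the lower and 556, 547 and 481 with the higher dose, with overlapping levels at both doses (limma log2 fold change 0.94, standard error 0.08, adjusted p = 4.81e-13 at 2.5 µM). RPA2, the RPA subunit that damage kinases phosphorylate, went from 493, 457 and 439 untreated to 731, 727 and 664 with the lower and 812, 791 and 744 with the higher dose (limma log2 fold change 0.76, standard error 0.07, adjusted p = 2.22e-12 at 2.5 µM). Its 3 conditions were again separate.

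BRCA1 was at 315, 308 and 304 adjusted read counts in untreated MDA-MB-468 cells, at 377, 424 and 397 with 1 µM and at 434, 465 and 399 with 2.5 µM CDDP (limma log2 fold change 0.48, standard error 0.08, adjusted p = 1.05e-05 at 2.5 µM). BRCA2 was at 488, 467 and 436 untreated, at 688, 655 and 696 with the lower dose and at 735, 677 and 616 with the higher (limma log2 fold change 0.54, standard error 0.08, adjusted p = 4.63e-07 at 2.5 µM). Both genes overlapped between the doses and not with untreated cells. FANCF, the adaptor of the Fanconi core complex, fell from 141, 142 and 132 to 95.6, 82.6 and 83 with 1 µM and 72.6, 84 and 75.4 with 2.5 µM CDDP (limma log2 fold change -0.83, standard error 0.20, adjusted p = 0.00143 at 2.5 µM), and its call at 1 µM (adjusted p = 0.0139) was lost without library 2 of that dose. PALB2, which bridges BRCA1 and BRCA2, fell from 170, 144 and 137 to 129, 86.3 and 106 with 1 µM (limma log2 fold change -0.50, standard error 0.18, adjusted p = 0.0356). Its call was lost without library 2 or 3 of that dose or without untreated library 1 or 2. With 2.5 µM, PALB2 was at 109, 138 and 104, with a log2 fold change of -0.37 (limma adjusted p = 0.125). RAD51B fell with 2.5 µM CDDP, from 88.2, 135 and 110 to 62, 57 and 55.8 (limma log2 fold change -0.90, standard error 0.19, adjusted p = 0.000358).

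**Figure D2:**
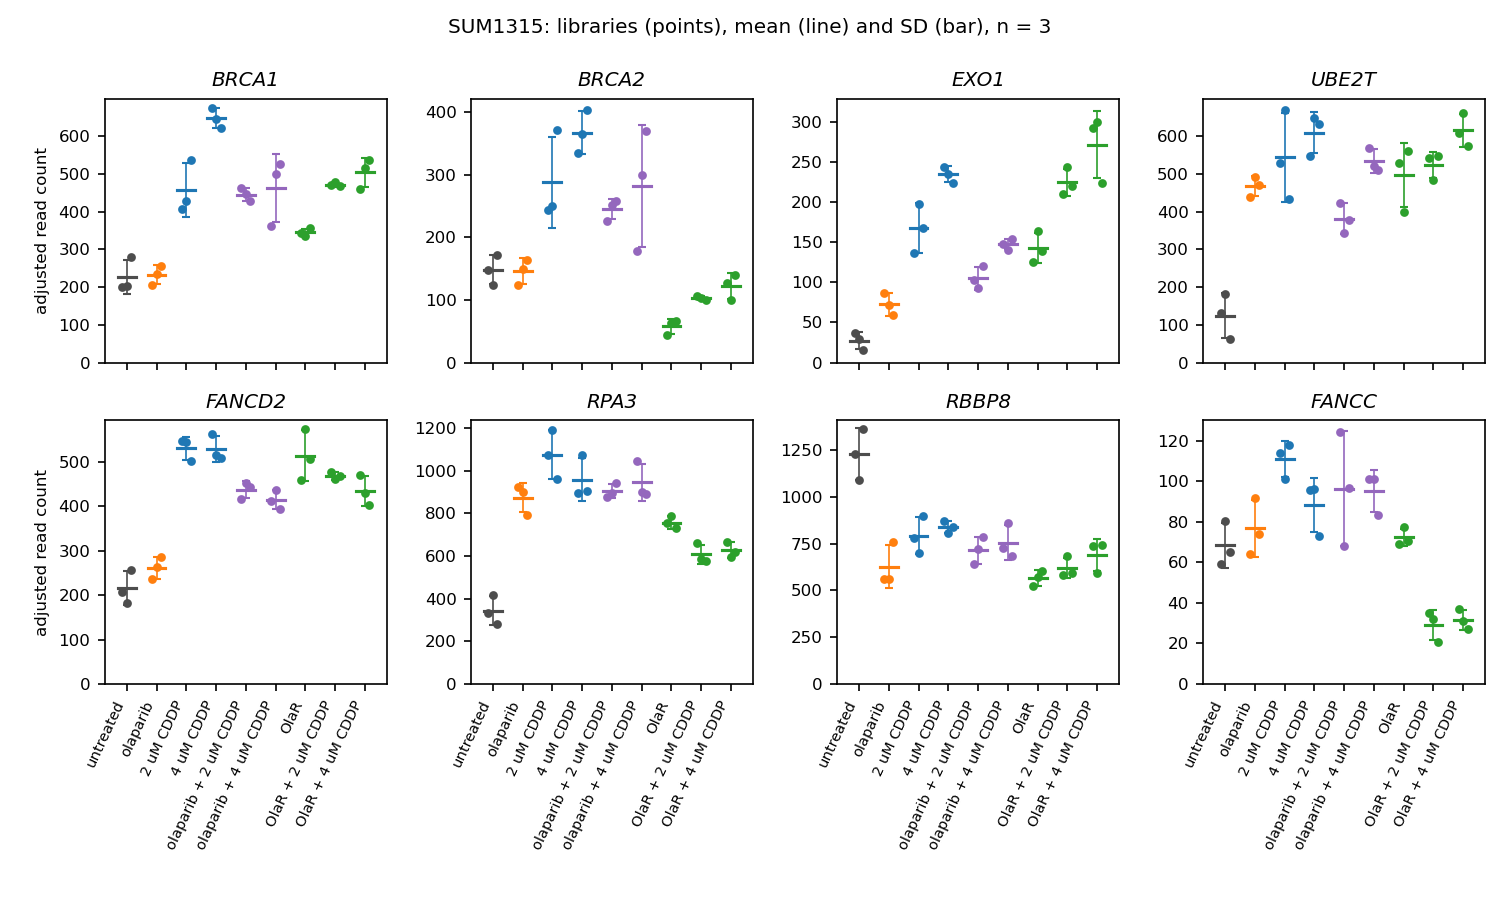
Adjusted read counts of 8 genes in the 27 SUM1315 libraries, with the mean and SD of each condition (n = 3). In the means, EXO1, UBE2T, FANCD2 and RPA3 are lowest and RBBP8 is highest in untreated cells, and FANCC is lowest in OlaR cells given CDDP.

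At the higher CDDP dose alone, 22 genes rose in both lines, which is 75.9% of those that rose in SUM1315 and 91.7% of those that rose in MDA-MB-468 cells. RAD51B fell in both. The doses differed, so that the difference between the responses is one between 4 µM in SUM1315 and 2.5 µM in MDA-MB-468 cells. By a test of that difference, 17 genes responded more positively in SUM1315 cells and 1 more negatively, against 13.7% and 13.9% of the genes tested. EXO1 came first by adjusted p and by size, and its values in MDA-MB-468 cells were 292, 217 and 235 untreated and 369, 450 and 359 with 2.5 µM CDDP (limma log2 difference 2.49, standard error 0.24, adjusted p = 4.33e-11). RPA3 was next by adjusted p, with 805, 847 and 826 untreated and 1077, 1045 and 1078 with 2.5 µM CDDP in MDA-MB-468 cells (limma log2 difference 1.12, standard error 0.13, adjusted p = 2.17e-09). Both genes also rose in MDA-MB-468 cells, where treated and untreated libraries did not overlap. The BRCA1 response also differed (limma log2 difference 1.04, standard error 0.15, adjusted p = 7.99e-07). RBBP8 had the more negative response in SUM1315, and was at 326, 293 and 363 untreated and 369, 329 and 344 with 2.5 µM CDDP in MDA-MB-468 cells, where the conditions overlapped (limma log2 difference -0.63, standard error 0.16, adjusted p = 0.00175).

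**Figure D3:**
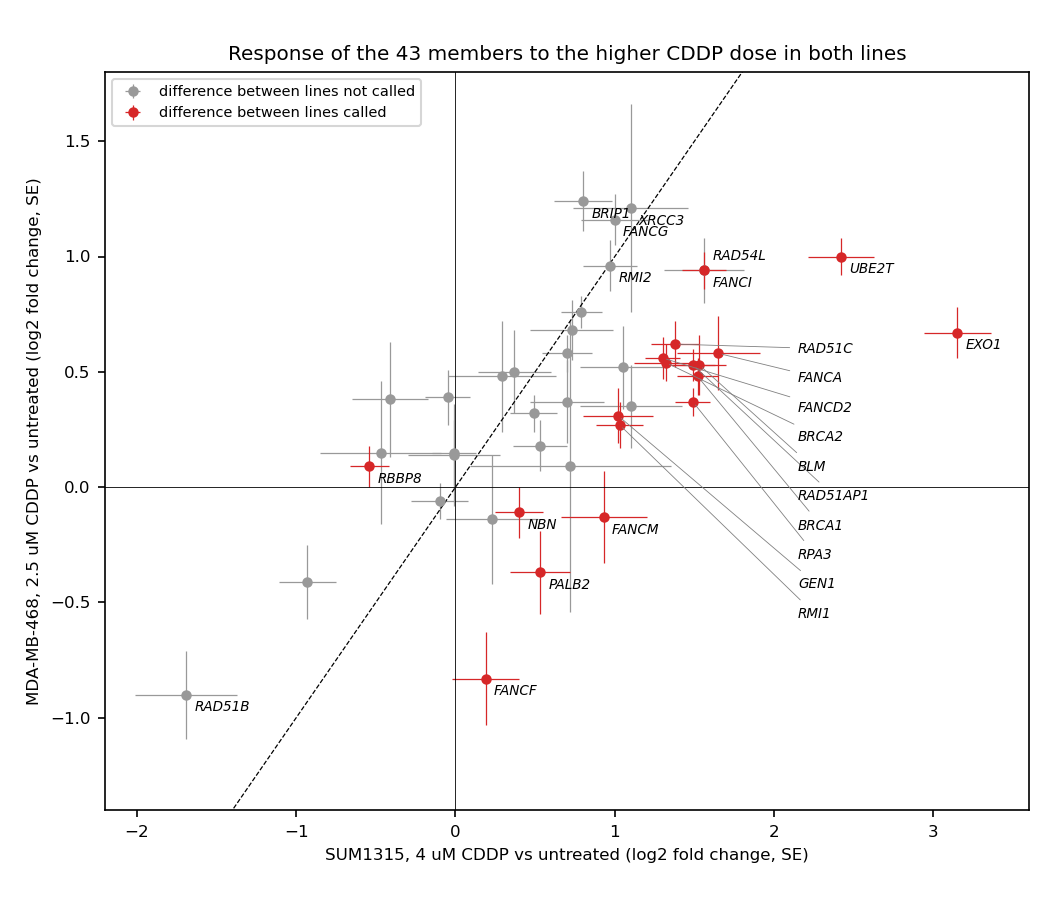
Log2 fold change of each of the 43 genes with the higher CDDP dose against untreated cells in SUM1315 (x axis, 4 µM) and MDA-MB-468 cells (y axis, 2.5 µM), with standard errors and a dashed line where both are equal. Red marks the 18 genes whose responses differed between the lines by the test, and EXO1 and UBE2T lie farthest to the right.

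Genes of proliferating cells also changed, and in MDA-MB-468 cells in both directions. Of the proliferation list, which holds cyclins, mitotic kinases, replication licensing factors and nucleotide synthesis enzymes, 21 of 24 tested rose and 1 fell with 4 µM CDDP in SUM1315 cells, and 15 of 25 rose and 6 fell with 2.5 µM in MDA-MB-468 cells. RRM2, a subunit of ribonucleotide reductase, went from 293 to 1631 (adjusted p = 2.21e-19) adjusted read counts in SUM1315 cells by limma, and from 1925 to 5665 (adjusted p = 1.27e-29) in the other line. The 6 that fell in MDA-MB-468 cells were PLK1, AURKA, CCNB1, MKI67, BUB1 and TOP2A, most of which peak in the G2 phase and mitosis, whereas CDK1 and the genes of replication and nucleotide synthesis that passed the test rose. The mitotic kinase PLK1 went from 336 to 202 (adjusted p = 5.88e-06) in MDA-MB-468 cells and from 316 to 209 (adjusted p = 0.00312) in SUM1315 cells, where it was the gene that fell, and the proliferation marker MKI67 from 1929 to 1369 (adjusted p = 5.57e-09) and, upward, from 1064 to 1964 (adjusted p = 1.23e-06) by limma. The summed adjusted read count of the list was 19187 to 22400 in untreated SUM1315 libraries and 36120 to 39989 with 2 µM and 31836 to 33134 with 4 µM CDDP. In MDA-MB-468 cells it was 27082 to 27576 untreated, 32666 to 33923 with 1 µM and 35098 to 35254 with 2.5 µM. The part of proliferation in the changes of the 43 genes was not tested.

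Of 43 further genes of the pathways, a list of partners and regulators of which 40 were in the table, 36 could be tested in SUM1315 cells and 35 in the MDA-MB-468 line. With the higher CDDP dose 17 rose and 3 fell in SUM1315, and 10 rose and 3 fell in MDA-MB-468 cells. RFWD3, a ubiquitin ligase that clears RPA from stalled sites, went from 263 to 632 (adjusted p = 7.1e-09) in SUM1315 and from 697 to 1336 (adjusted p = 1.61e-14) in MDA-MB-468 cells. BABAM1, a scaffold of the BRCA1-A complex, went from 358 to 629 (adjusted p = 6.13e-08) and from 892 to 1161 (adjusted p = 1.88e-06). MCM8, a helicase of recombination, went from 199 to 455 (adjusted p = 1.61e-08) adjusted read counts in SUM1315 cells (all by limma).

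Since many of these genes rose together, promoters of genes that rose with CDDP in both lines are shown, 7 with a match to the words below and 1, UBE2T, without. This choice does not follow the share of promoters with a match, which is given below. BRCA1 and BRCA2 also rose in both lines, but their promoters had no match and are not shown. E2F factors drive genes of the S phase and bind the word TTCCCGC or the same word with GG, CG or GC in place of the CC after TT. These 4 words were searched on both strands of the 300 bases around each RefSeq start (GRCh38.p14), a promoter with several matches counting once. At least 1 word was in 19 of the 35 promoters available (54.3%), in 11 of the 17 of genes that rose with the higher CDDP dose in both lines (64.7%) and in 5 of the 11 of genes that rose in neither (45.5%). It was in 21.6% of the 8993 promoters of genes tested in both lines, in 13% of all 27305 promoters, in 14 of 21 promoters of the proliferation list (66.7%) and in 12 of 41 of the list of partners and regulators (29.3%). The CCAAT box was in 14 of the 35 (40%), in 9 of the 17 of genes that rose in both lines (52.9%), in 1 of the 11 of genes that rose in neither (9.09%), in 17 of 21 of the proliferation list (81%) and in 37.3% of the promoters of genes tested in both lines. The cell cycle element CHR (TTTGAA, or the same word with C in place of the last T) was in 3 of the 35 (8.57%), in 2 of the 17 (11.8%), in none of the 11, in 8 of the 21 (38.1%) and in 11.2% of the genes tested in both lines. Promoters were not matched for base composition, and a match is a run of letters and not a shown site. The stretches below run 5′ to 3′ on the strand of the gene over 120 bases, of which the last 20 are transcribed, with the words in capitals.
RAD51AP1 (chr12:4538790-4538909, plus strand): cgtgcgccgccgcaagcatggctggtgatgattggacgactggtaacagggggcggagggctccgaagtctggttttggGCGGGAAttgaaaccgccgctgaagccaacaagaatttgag
RAD54L (chr1:46247588-46247707, plus strand): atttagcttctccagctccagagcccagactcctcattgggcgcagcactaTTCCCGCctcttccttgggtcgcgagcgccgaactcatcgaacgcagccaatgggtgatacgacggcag
BLM (chr15:90717246-90717365, plus strand): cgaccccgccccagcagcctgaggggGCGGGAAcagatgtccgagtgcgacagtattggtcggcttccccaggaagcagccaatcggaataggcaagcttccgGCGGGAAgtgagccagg
FANCD2 (chr3:10026337-10026456, plus strand): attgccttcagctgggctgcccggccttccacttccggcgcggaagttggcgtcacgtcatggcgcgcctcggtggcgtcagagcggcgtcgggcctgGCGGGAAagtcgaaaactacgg
BRIP1 (chr17:61863509-61863628, minus strand): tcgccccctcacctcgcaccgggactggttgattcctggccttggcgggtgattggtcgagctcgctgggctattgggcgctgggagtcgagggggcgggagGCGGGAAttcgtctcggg
BARD1 (chr2:214809664-214809783, minus strand): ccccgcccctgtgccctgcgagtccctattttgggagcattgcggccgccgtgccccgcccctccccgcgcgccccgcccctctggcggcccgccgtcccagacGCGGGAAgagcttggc
FANCG (chr9:35079923-35080042, minus strand): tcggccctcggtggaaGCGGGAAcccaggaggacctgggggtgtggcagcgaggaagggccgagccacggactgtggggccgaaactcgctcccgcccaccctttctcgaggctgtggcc
UBE2T (chr1:202341917-202342036, minus strand): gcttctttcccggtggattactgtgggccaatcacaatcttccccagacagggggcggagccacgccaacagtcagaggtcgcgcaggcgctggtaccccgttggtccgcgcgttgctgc

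Olaparib alone changed 15 of the 43 genes in the BRCA1 mutant line and 17 in the other. In SUM1315 cells 12 rose (27.9%) and 3 fell (6.98%) with 8 µM olaparib, against 18.9% and 17.1% of all genes. In both directions together, 34.9% of the 43 genes changed there, which is near the share of all genes. In MDA-MB-468 cells 13 rose and 4 fell with 3 µM, against 12.4% and 9.11%. FANCD2, FANCG, FANCI, RAD51C, RAD54L, RPA1, RPA3 and UBE2T rose in both lines, and RAD51B and RBBP8 fell in both. Within a line, the same untreated libraries are the control for olaparib alone and for CDDP alone. Changes that both drugs share therefore rest partly on the same libraries. The proliferation list rose in 13 genes and fell in 2 in each line, with summed levels of 29099 to 29929 in SUM1315 and 35092 to 38380 in MDA-MB-468 libraries.

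UBE2T was the gene most raised by olaparib in SUM1315 cells, from 130, 181 and 61.4 untreated to 439, 491 and 471 adjusted read counts (limma log2 fold change 2.04, standard error 0.21, adjusted p = 1.67e-09). RPA3 went from 334, 416 and 283 to 924, 901 and 794 (limma log2 fold change 1.36, standard error 0.11, adjusted p = 2.43e-11), and EXO1 from 36.3, 29 and 15.7 to 87.2, 72.4 and 59 (limma log2 fold change 1.46, standard error 0.21, adjusted p = 1.07e-06). None of the 3 genes overlapped between the conditions. RBBP8 was at 559, 558 and 759 with olaparib, below the untreated 1229, 1090 and 1363 (limma log2 fold change -0.98, standard error 0.12, adjusted p = 1.25e-07). WRN was at 195, 200 and 138 (limma log2 fold change -0.53, standard error 0.18, adjusted p = 0.0204) and RAD51B at 34.6, 22.4 and 43 (limma log2 fold change -0.89, standard error 0.32, adjusted p = 0.0277). The last 2 calls were each lost without untreated library 1, and that of RAD51B also without untreated library 3 or olaparib library 2 and that of WRN without olaparib library 3. BRCA1 was at 206, 236 and 257 and BRCA2 at 124, 149 and 164, and neither passed the test, with libraries that overlapped with untreated cells (limma adjusted p = 0.813 and 0.958).

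In MDA-MB-468 cells olaparib took FANCI from 264, 274 and 287 to 496, 453 and 429 (limma log2 fold change 0.74, standard error 0.08, adjusted p = 7.24e-10). FANCG, a scaffold of the Fanconi core complex, went from 187, 225 and 198 to 355, 387 and 405 (limma log2 fold change 0.91, standard error 0.11, adjusted p = 5.31e-09), and UBE2T from 444, 387 and 449 to 541, 625 and 649 (limma log2 fold change 0.50, standard error 0.08, adjusted p = 3.47e-06). All olaparib libraries of the 3 genes lay above the untreated ones. PALB2 fell from 170, 144 and 137 to 88.2, 71.8 and 83 (limma log2 fold change -0.89, standard error 0.18, adjusted p = 0.000138), RBBP8 from 326, 293 and 363 to 243, 215 and 281 (limma log2 fold change -0.41, standard error 0.09, adjusted p = 0.000763) and FANCF from 141, 142 and 132 to 101, 69.8 and 90.3 (limma log2 fold change -0.68, standard error 0.20, adjusted p = 0.011). The FANCF call was lost without olaparib library 2. BRCA1 was at 336, 333 and 371 and BRCA2 at 519, 516 and 498 with olaparib (limma adjusted p = 0.164 and 0.219), in both cases above the untreated libraries.

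CDDP still raised part of the genes when the cells also had olaparib. In SUM1315 cells 12 genes changed when 4 µM CDDP was added to olaparib, all of them upward, where 4.35% of all genes rose, and 6 changed with 2 µM, again upward, against 2.09%. There were 7 at 4 µM without combination library 3 and 3 at 2 µM without combination library 2. In MDA-MB-468 cells 22 rose and 2 fell with 2.5 µM, against 10.1% and 13.1%, and 7 changed with 1 µM, all upward, against 2.3%. Without library 1 of olaparib and 2.5 µM CDDP, 15 changed in place of 24. At the higher dose, BRCA1, BRCA2, BARD1, BRIP1, BLM, EXO1, FANCI, RAD51AP1 and RPA2 rose in both lines, and at the lower dose BRCA1, BRCA2, BRIP1 and BLM did. The proliferation list rose in 9 and fell in 3 of 24 genes in SUM1315 and rose in 14 and fell in 9 of 25 in MDA-MB-468 cells at the higher dose.

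BRCA1 in SUM1315 cells was at 206, 236 and 257 with olaparib, at 462, 447 and 428 with 2 µM CDDP added and at 361, 501 and 527 with 4 µM (limma log2 fold change 0.97, standard error 0.13, adjusted p = 6.11e-06 for 4 µM). The helicase BLM, which dissolves joined molecules, was at 73.7, 92.5 and 75.9 with olaparib alone, at 160, 152 and 141 with the lower CDDP dose added and at 143, 177 and 188 with the higher (limma log2 fold change 1.06, standard error 0.17, adjusted p = 0.000113 for 4 µM). FANCD2, the ubiquitin target at the centre of the Fanconi pathway, was at 237, 264 and 286 with olaparib alone, at 416, 454 and 443 with the lower CDDP dose added and at 412, 438 and 395 with the higher (limma log2 fold change 0.66, standard error 0.11, adjusted p = 0.00021 for 4 µM). None of these combination libraries overlapped with olaparib alone, and both doses gave overlapping levels. BRCA2 was at 124, 149 and 164 with olaparib alone, at 226, 251 and 258 with the lower CDDP dose added and at 178, 299 and 370 with the higher (limma log2 fold change 0.89, standard error 0.20, adjusted p = 0.00448 for 4 µM). Its 3 libraries with olaparib and 4 µM CDDP were spread over more than the others, and the call was lost without library 3 of them. At 2 µM its call (adjusted p = 0.0311) was lost without olaparib library 1 or 2 or any 1 of the combination libraries.

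In MDA-MB-468 cells, BRCA2 was at 519, 516 and 498 with olaparib, 576, 746 and 682 with 1 µM CDDP added and 969, 963 and 934 with 2.5 µM, the highest level of the gene in any condition of the line (limma log2 fold change 0.90, standard error 0.08, adjusted p = 2.95e-13 for 2.5 µM). EXO1 was at 193, 262 and 241 with olaparib alone, at 299, 338 and 344 with the lower CDDP dose added and at 487, 476 and 442 with the higher (limma log2 fold change 1.02, standard error 0.11, adjusted p = 1.92e-10 for 2.5 µM). RBBP8 was at 243, 215 and 281 with olaparib alone, at 325, 350 and 337 with the lower CDDP dose added and at 417, 414 and 441 with the higher (limma log2 fold change 0.79, standard error 0.09, adjusted p = 2.26e-09 for 2.5 µM). Each of these genes was ordered by dose, with no overlap between the 3 conditions. BRIP1, the helicase partner of BRCA1, was at 102, 113 and 103 with olaparib alone, at 159, 154 and 195 with the lower CDDP dose added and at 213, 170 and 194 with the higher (limma log2 fold change 0.67, standard error 0.13, adjusted p = 0.000622 for 1 µM). BRCA1 was at 336, 333 and 371 with olaparib alone, at 422, 465 and 476 with the lower CDDP dose added and at 566, 511 and 587 with the higher (limma log2 fold change 0.68, standard error 0.08, adjusted p = 5.06e-09 for 2.5 µM). RPA1, the largest RPA subunit, fell with 2.5 µM from 814, 795 and 851 to 659, 703 and 659 (limma log2 fold change -0.28, standard error 0.08, adjusted p = 0.00587). RAD51B fell from 80.4, 49.4 and 94.5 to 45, 45.5 and 46.8 (limma log2 fold change -0.65, standard error 0.19, adjusted p = 0.0105), a call lost without olaparib library 1 or 3.

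Whether the response to CDDP differs with olaparib was tested as an interaction of the higher dose with olaparib. In SUM1315 cells 13 genes responded less positively and 2 more positively with olaparib, against 11.6% and 9.92% of all genes. In MDA-MB-468 cells the counts were 10 and 3, against 12% and 8.14%. FANCD2, FANCG, FANCI, RAD51C, RAD54L, RPA1, RPA3 and UBE2T had the more negative response with olaparib in both lines. For RPA1 in MDA-MB-468 cells this was a change of sign. It rose with the higher CDDP dose alone (log2 fold change 0.32) and fell when that dose was added to olaparib. The same 8 genes had risen with olaparib alone in both lines, and the olaparib libraries enter both of these comparisons. RPA3 in SUM1315 cells was at 924, 901 and 794 with olaparib and 1046, 899 and 891 with 4 µM CDDP added (limma log2 difference -1.37, standard error 0.16, adjusted p = 1.22e-07 between the responses). UBE2T went from 439, 491 and 471 to 569, 522 and 509 (limma log2 difference -2.22, standard error 0.29, adjusted p = 9.39e-07), and EXO1 from 87.2, 72.4 and 59 to 148, 141 and 154 (limma log2 difference -2.12, standard error 0.29, adjusted p = 2.28e-06). In MDA-MB-468 cells the smallest adjusted p-values were those of UBE2T, from 541, 625 and 649 to 769, 666 and 667 (limma log2 difference -0.79, standard error 0.11, adjusted p = 4.69e-07), FANCG, from 355, 387 and 405 to 439, 367 and 415 (limma log2 difference -1.07, standard error 0.16, adjusted p = 5.76e-07), and FANCI, from 496, 453 and 429 to 588, 532 and 497 (limma log2 difference -0.71, standard error 0.12, adjusted p = 6.79e-06). On the proliferation list, 18 of 24 genes in SUM1315 and 13 of 25 in MDA-MB-468 cells had the more negative response with olaparib. For genes that fell with CDDP, a more negative response is a larger fall and not a weaker response. The part of proliferation in these differences was not tested.

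**Figure D4:**
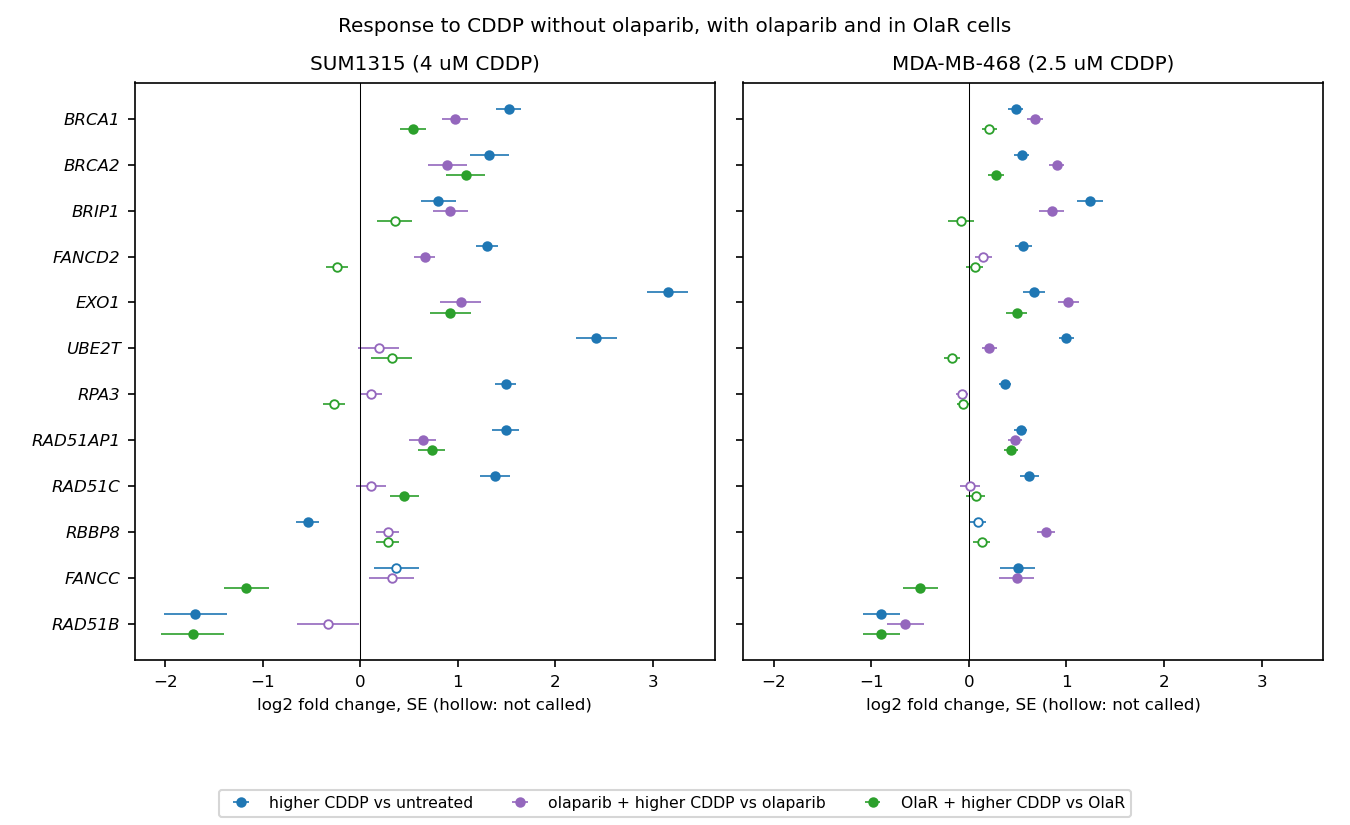
Log2 fold changes with standard errors of 12 genes for the higher CDDP dose against untreated parental cells, on top of olaparib in parental cells and in OlaR cells, in SUM1315 (left) and MDA-MB-468 cells (right). RPA3 and RAD51C responded without olaparib and lie within 0.11 of 0 with it in parental cells, BRCA2 responded in all 3 settings, and FANCC is below 0 in OlaR cells only.

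At the same CDDP dose, olaparib moved few of the genes. In SUM1315 cells 5 changed when olaparib was added to 4 µM CDDP, all of them downward, where 6.52% of all genes fell. The 5 were BRCA1, EXO1, FANCD2, RAD51AP1 and RAD51C. BRCA1 went from 674, 647 and 621 to 361, 501 and 527 (limma log2 fold change -0.50, standard error 0.13, adjusted p = 0.00995). RAD51C, a recombinase paralog, went from 295, 312 and 375 to 217, 232 and 227 (limma log2 fold change -0.53, standard error 0.15, adjusted p = 0.0193), and RAD51AP1, which stimulates strand pairing, from 505, 475 and 423 to 335, 373 and 322 (limma log2 fold change -0.45, standard error 0.14, adjusted p = 0.0292). The libraries of these 3 genes did not overlap, but the calls were not stable to single libraries. Without any 1 library of 4 µM CDDP alone or combination library 3, 2 genes passed, without combination library 2, 3 passed, and without combination library 1, 0 passed by limma. In MDA-MB-468 cells 6 rose and 2 fell, against 4.63% and 7.29%. BRCA2 went from 735, 677 and 616 to 969, 963 and 934 (limma log2 fold change 0.50, standard error 0.08, adjusted p = 5.53e-06), BRCA1 from 434, 465 and 399 to 566, 511 and 587 (limma log2 fold change 0.36, standard error 0.08, adjusted p = 0.00182) and RAD50, which tethers broken ends, from 532, 518 and 540 to 693, 660 and 648 (limma log2 fold change 0.33, standard error 0.08, adjusted p = 0.00517). These libraries did not overlap. RMI2, a partner of BLM, fell from 441, 447 and 406 to 301, 299 and 351 (limma log2 fold change -0.45, standard error 0.11, adjusted p = 0.00274) and UBE2T from 838, 908 and 820 to 769, 666 and 667 (limma log2 fold change -0.29, standard error 0.08, adjusted p = 0.011). The UBE2T call was lost, and 5 genes passed in place of 8, without library 2 of 2.5 µM CDDP or library 2 or 3 of the combination. BRCA1 was thus lower with olaparib in SUM1315 and higher in MDA-MB-468 cells, each against CDDP alone. The SUM1315 call was lost without combination library 1 (limma log2 fold change -0.33, adjusted p = 0.123). The difference between the lines was not tested for this contrast.

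OlaR cells differed from olaparib-treated parental cells in about as many of these genes as of all genes. In SUM1315 OlaR cells 12 were higher and 6 lower, against 21.6% and 25.7% of all genes, and in MDA-MB-468 OlaR cells 12 were higher and 9 lower, against 23.6% and 27.9%. BLM, BRCA1, BRIP1, FANCD2, RAD51AP1, RAD51B and XRCC2 were higher in both OlaR lines, and NBN was lower in both. BRCA2, RAD50 and RAD52 were lower in SUM1315 and higher in MDA-MB-468 OlaR cells, and EXO1 was the reverse. The proliferation list was higher in 14 and lower in 3 of 24 genes in SUM1315 and higher in 10 and lower in 9 of 25 genes in MDA-MB-468 OlaR cells, with summed levels of 31765 to 32536 against 29099 to 29929 and of 31407 to 32311 against 35092 to 38380.

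BRCA2 was at 44.1, 63.1 and 65.7 adjusted read counts in SUM1315 OlaR cells, below the 124, 149 and 164 of olaparib-treated parental cells (limma log2 fold change -1.33, standard error 0.20, adjusted p = 2.1e-06). In MDA-MB-468 OlaR cells it was at 739, 669 and 626, above 519, 516 and 498 (limma log2 fold change 0.40, standard error 0.08, adjusted p = 2.3e-05). BRCA1 was higher in both, at 344, 336 and 356 against 206, 236 and 257 in SUM1315 (limma log2 fold change 0.57, standard error 0.13, adjusted p = 0.000652) and at 441, 447 and 431 against 336, 333 and 371 in MDA-MB-468 cells (limma log2 fold change 0.34, standard error 0.08, adjusted p = 0.00046). NBN, the sensor subunit of the MRE11 complex, was at 120, 122 and 132 against 243, 214 and 283 in SUM1315 (limma log2 fold change -0.97, standard error 0.15, adjusted p = 2.01e-06) and at 192, 208 and 208 against 303, 291 and 318 in MDA-MB-468 cells (limma log2 fold change -0.58, standard error 0.11, adjusted p = 7.05e-06). OlaR and parental libraries did not overlap for any of these genes.

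FANCD2 in SUM1315 OlaR cells was at 460, 574 and 508 against 237, 264 and 286 (limma log2 fold change 0.97, standard error 0.11, adjusted p = 1.83e-08), BLM at 154, 113 and 200 against 73.7, 92.5 and 75.9 (limma log2 fold change 0.91, standard error 0.17, adjusted p = 5.69e-05) and EXO1 at 126, 164 and 139 against 87.2, 72.4 and 59 (limma log2 fold change 0.97, standard error 0.21, adjusted p = 0.000232). All 3 overlapped with the levels of parental cells given 2 µM CDDP alone. RMI1, which holds BLM in its complex, was lower, at 107, 79.7 and 79.6 against 157, 147 and 146 (limma log2 fold change -0.77, standard error 0.15, adjusted p = 6.74e-05). In MDA-MB-468 OlaR cells XRCC2, a recombinase paralog, was at 116, 163 and 171 against 58.8, 57.2 and 52.9 (limma log2 fold change 1.38, standard error 0.18, adjusted p = 5.56e-09), the only one of the 43 genes past 2-fold higher in that contrast. RBBP8 was at 417, 393 and 395 against 243, 215 and 281 (limma log2 fold change 0.71, standard error 0.09, adjusted p = 7.16e-09) and RAD51AP1 at 884, 844 and 822 against 652, 543 and 636 (limma log2 fold change 0.48, standard error 0.07, adjusted p = 2.94e-07). FANCG was lower, at 277, 207 and 222 against 355, 387 and 405 (limma log2 fold change -0.71, standard error 0.11, adjusted p = 3.57e-07), and so was MRE11, the nuclease that acts with RAD50 and NBN, at 146, 180 and 118 against 259, 222 and 213 (limma log2 fold change -0.66, standard error 0.12, adjusted p = 7.56e-06). OlaR and parental libraries did not overlap for any of these genes either. Of the Fanconi core genes, FANCE, FANCF, FANCG and FANCM were lower and FANCL was higher in MDA-MB-468 OlaR cells. FANCF was at 53.1, 40.7 and 35.7 against 101, 69.8 and 90.3 adjusted read counts (limma adjusted p = 4.01e-05).

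**Figure D5:**
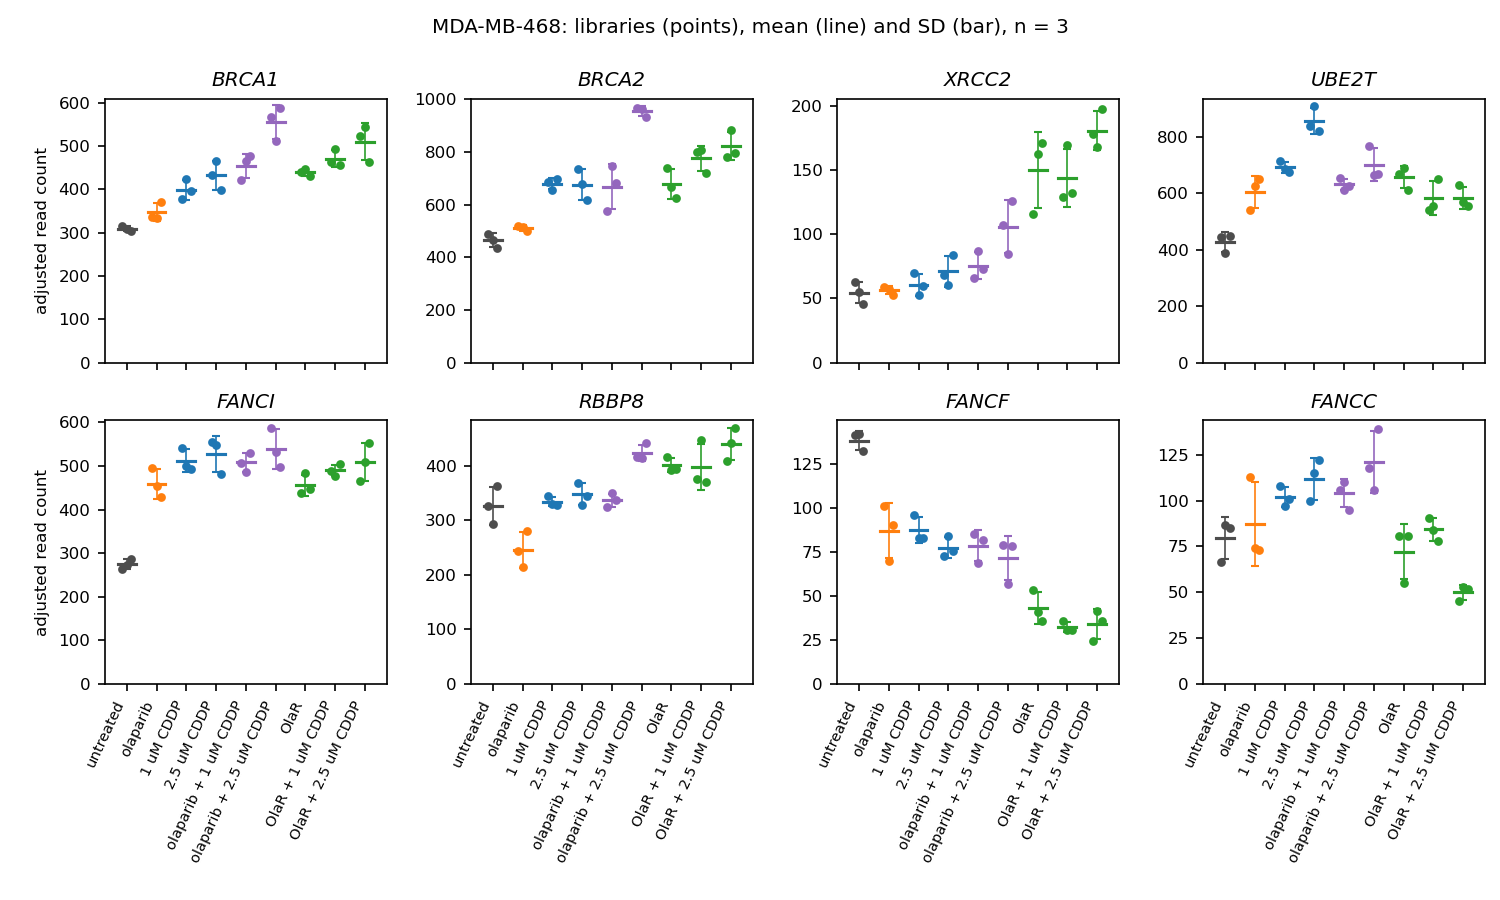
Adjusted read counts of 8 genes in the 27 MDA-MB-468 libraries, with the mean and SD of each condition (n = 3). BRCA2 is highest with olaparib and 2.5 µM CDDP, XRCC2 is high and FANCF low in the 9 OlaR libraries, and FANCC is lowest in OlaR cells with 2.5 µM CDDP.

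CDDP changed some of the genes in OlaR cells. In SUM1315 OlaR cells 13 rose and 2 fell with 4 µM, against 7.13% and 9.61% of all genes, and 3 rose and 1 fell with 2 µM, against 0.548% and 0.876%. In MDA-MB-468 OlaR cells 8 rose and 2 fell with 2.5 µM, against 7.43% and 11.2%, and 2 rose and 1 fell with 1 µM, against 1.84% and 2.91%. The counts at the higher dose were 9 without SUM1315 OlaR library 1, and 5 without MDA-MB-468 OlaR library 3 or 6 without library 2 of 2.5 µM. At the higher dose, BRCA2, EXO1, RAD51AP1, RMI1 and RPA2 rose in both OlaR lines, and FANCC and RAD51B fell in both. No other of the 43 genes fell in either. The proliferation list rose in 8 and fell in 2 of 24 genes in SUM1315 and rose in 13 and fell in 6 of 25 in MDA-MB-468 OlaR cells at that dose.

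FANCC, a subunit of the Fanconi core complex, was at 69, 77.2 and 70.6 in SUM1315 OlaR cells, at 34.8, 31.9 and 20.6 with 2 µM and at 36.9, 31.3 and 27 with 4 µM CDDP (limma log2 fold change -1.17, standard error 0.23, adjusted p = 0.000479 for 4 µM). In parental SUM1315 cells it was at 64.2, 91.8 and 73.9 with olaparib and 101, 101 and 83.4 with olaparib and 4 µM CDDP. In OlaR cells of MDA-MB-468 it was at 80.8, 55 and 80.7 and, with 2.5 µM CDDP, at 45.2, 53 and 51.9 (limma log2 fold change -0.50, standard error 0.18, adjusted p = 0.0399). The OlaR libraries with the higher dose lay below all others of their line in both cases, except that SUM1315 OlaR libraries with 2 µM CDDP were as low. The MDA-MB-468 call was lost without OlaR library 1 or 3 or any 1 of the libraries with CDDP. RAD51B went from 57.1, 62.8 and 72.1 to 23.3, 23.9 and 11.5 in SUM1315 OlaR cells (limma log2 fold change -1.72, standard error 0.32, adjusted p = 0.000231). In the OlaR cells of MDA-MB-468 it went from 145, 132 and 105 to 82.5, 84.8 and 73.1 with 1 µM and 72.8, 66.9 and 62.6 with 2.5 µM (limma log2 fold change -0.90, standard error 0.19, adjusted p = 0.000479 for 2.5 µM). At 1 µM the call (adjusted p = 0.0365) was lost without OlaR library 1 or 2 or any 1 of the libraries with CDDP.

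BRCA2 rose in SUM1315 OlaR cells from 44.1, 63.1 and 65.7 to 107, 103 and 100 with 2 µM and 127, 99.5 and 140 with 4 µM CDDP (limma log2 fold change 1.08, standard error 0.20, adjusted p = 0.00032 for 4 µM). Even so, all 9 OlaR libraries stayed below all 6 parental libraries given CDDP and olaparib, the lowest of which was the first at 4 µM. RMI1 went from 107, 79.7 and 79.6 to 146, 152 and 160 (limma log2 fold change 0.79, standard error 0.15, adjusted p = 0.000281) and RAD51AP1 from 270, 286 and 290 to 550, 461 and 408 with 4 µM (limma log2 fold change 0.73, standard error 0.14, adjusted p = 0.000304). At 2 µM the calls were for FANCC, BRCA2, RMI1 and RAD51AP1, and without any 1 of the 6 libraries 2 genes passed, or 1 without library 3 of 2 µM. BRCA1 went from 344, 336 and 356 to 461, 515 and 537 with 4 µM (limma log2 fold change 0.54, standard error 0.13, adjusted p = 0.00446). In MDA-MB-468 OlaR cells RAD51AP1 went from 884, 844 and 822 to 1090, 1104 and 1255 with 2.5 µM (limma log2 fold change 0.43, standard error 0.07, adjusted p = 1.66e-05), and FANCB, a core subunit, from 85.5, 73.7 and 66 to 112, 143 and 135 (limma log2 fold change 0.79, standard error 0.18, adjusted p = 0.000756). EXO1 went from 183, 165 and 178 to 249, 264 and 228 (limma log2 fold change 0.49, standard error 0.11, adjusted p = 0.000815). BRCA2 went from 739, 669 and 626 to 783, 884 and 798 (limma log2 fold change 0.28, standard error 0.08, adjusted p = 0.00868), a call lost without OlaR library 3 or CDDP library 2, and BRCA1 from 441, 447 and 431 to 522, 545 and 463 (limma adjusted p = 0.0664, past the threshold without CDDP library 3). With 1 µM, FANCG rose to 333, 349 and 345 from 277, 207 and 222 (limma log2 fold change 0.55, standard error 0.11, adjusted p = 0.00138) and RPA2 to 777, 747 and 704 from 614, 600 and 656 (limma log2 fold change 0.25, standard error 0.07, adjusted p = 0.0247), the second lost, and 1 gene passing in place of 3, without OlaR library 1 or 2 or CDDP library 1 or 2.

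The response to the higher CDDP dose was then compared between OlaR cells and olaparib-treated parental cells by an interaction. In SUM1315 cells 2 of the genes had a different response in OlaR cells, both more negative, against 4.41% of all genes, and these were FANCD2 (limma log2 difference -0.90, standard error 0.16, adjusted p = 0.000515) and FANCC (limma log2 difference -1.49, standard error 0.32, adjusted p = 0.00408). FANCD2 was at 460, 574 and 508 in OlaR cells and at 472, 430 and 403 with 4 µM CDDP, whereas it rose in parental cells. Without library 1 of olaparib and 4 µM CDDP, 4 genes differed in place of 2. In MDA-MB-468 cells 11 had the more negative response in OlaR cells and 1, RPA1, the more positive one, against 7.47% and 7.58%. Without olaparib library 1, 7 differed in place of 12. The first 3 by adjusted p were BRCA2 (limma log2 difference -0.62, standard error 0.11, adjusted p = 5.43e-05), RBBP8 (limma log2 difference -0.66, standard error 0.13, adjusted p = 0.000272) and BRIP1 (limma log2 difference -0.93, standard error 0.19, adjusted p = 0.000285). BRIP1 was at 145, 152 and 135 in OlaR cells and 136, 155 and 119 with 2.5 µM CDDP. RBBP8 went from 417, 393 and 395 to 409, 442 and 469, and for neither gene was the change within OlaR cells past the threshold. The 11 held all 4 genes of the BRCA complex and BLM, BRIP1, EXO1, FANCC, RAD50, RBBP8 and UBE2T. Of these, BRCA1, BRCA2, BLM, BRIP1, RAD50 and RBBP8 were already higher in OlaR than in olaparib-treated parental cells without CDDP, and EXO1 was lower. FANCD2 was likewise already higher in SUM1315 OlaR cells. The OlaR and olaparib libraries without CDDP enter both comparisons, so that these results are not independent. Of the proliferation list, 5 of 25 had the more negative and 7 the more positive response in MDA-MB-468 OlaR cells, and in SUM1315 OlaR cells 2 of 24 had the more negative one.

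Some of the 43 genes passed the test in none of the 9 contrasts within a line. These were SLX4, FANCE, FANCF, FANCL and FAN1 in SUM1315 and RAD51D, WRN, EME1, SLX4 and FAN1 in MDA-MB-468 cells. SLX4, a scaffold for nucleases, and FAN1, a nuclease of crosslink repair, were thus called in neither line. EME1, the partner of the nuclease MUS81, had the fewest reads, down to 0 in a SUM1315 and 2 in an MDA-MB-468 library, and its means were 3.35 with olaparib and 17.5 with 4 µM CDDP added in SUM1315 cells, the contrast in which it passed (limma adjusted p = 0.0418). A median under 30 reads per library was found for 4 of the genes in SUM1315 and for 2 in MDA-MB-468 cells, for which small changes were not detectable at this depth.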

How the data were processed

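RNA of 2 lines was made into libraries with a kit that reads the 3′ ends of transcripts. Per the labels, the submitters' processing notes name CASAVA 1.8.2, FastQC, STAR, HTSeq and edgeR with genome build hg38. The authors deposited a table of read counts per gene adjusted by edgeR to a common library size of 5585170 (a signal, not whole reads), with 27470 genes in 54 libraries. The adjustment could be inverted: whole reads, when adjusted again, gave back 1483380 of 1483380 values (100%, relative tolerance 1e-06). No libraries were duplicates by a chi-square comparison of replicates. Columns were assigned to samples by name, and the lines were analysed apart, since which libraries shared a multiplexed run was not given in the sources used here.

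Genes that reached a value of 10 in 3 or more libraries of a line were tested with limma 3.58.1 (R 4.3.3) on log2(value + 1), with an intensity trend, 1 fit of all 9 conditions of a line and Benjamini-Hochberg adjustment over 13133 genes in SUM1315, 13012 in MDA-MB-468 and 14460 in the comparison of lines. Fold changes of low genes are understated on this scale. The limma fit was tested on simulated libraries with known changes for the higher CDDP dose alone and on a contrast with no change. The simulated libraries had the same dispersion for every gene, so that genes with a larger spread between libraries were not covered. The other steps were not tested in this way. Alternatives were a fold limit of 2, other filters (none, or a mean of at least 20), pseudocounts of 0.5 and 5, quantile normalization, voom, edgeR 4.0.16 and DESeq2 1.42.0 on the recovered reads, fits of the compared conditions alone, a replicate block and leaving out each library. The genes, gene lists and tests were chosen with earlier results of these data known. Named with values were BRCA1, BRCA2 and up to 3 genes per direction and comparison by adjusted p, and a few others, singled out after their values were seen, to show a rule or an exception. Promoter sequences are from RefSeq (GRCh38.p14), which matched 35 of the 43 genes.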

Additional observations from a re-analysis of the deposited data

Results flagged for a closer look

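Responses to the higher CDDP dose were singled out where a test of the difference between 2 settings passed the threshold, with limma and Benjamini-Hochberg adjustment. Between SUM1315 and MDA-MB-468 parental cells, 18 of the 43 genes differed, 17 of them more positive in SUM1315 cells and 1 more negative, where 13.7% and 13.9% of all genes did. First by adjusted p were EXO1 with a log2 difference of 2.49, RPA3 with 1.12 and BRCA1 with 1.04, each more positive in SUM1315 cells.

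Between parental cells with and without olaparib, 15 genes differed in SUM1315 cells, 13 with a more negative response with olaparib and 2 with a more positive one, where 11.6% and 9.92% of all genes did. Among them were UBE2T with a log2 difference of -2.22, EXO1 with -2.12 and RPA3 with -1.37. In MDA-MB-468 cells 13 genes differed, 10 negative and 3 positive, where 12% and 8.14% of all genes did, among them FANCG with -1.07, UBE2T with -0.79 and FANCI with -0.71.

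Between OlaR cells and olaparib-treated parental cells, 2 genes differed in SUM1315 cells, both more negative in OlaR cells, which is near the 4.41% of all genes. They were FANCC with a log2 difference of -1.49 and FANCD2 with -0.90. In MDA-MB-468 cells 12 genes differed, 11 negative and 1 positive, where 7.47% and 7.58% of all genes did, among them BRIP1 with -0.93, RBBP8 with -0.66 and BRCA2 with -0.62.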

How the results depend on the processing

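None of the 125 named values was reversed by any of the alternatives run. With a fold change of at least 2 required as well, the counts of the 43 genes in SUM1315 cells were 4 for olaparib, 16 and 18 for the lower and higher CDDP dose, 0 and 3 for these doses on top of olaparib, 0 for olaparib on top of the higher dose, 2 for OlaR, 1 and 3 for the doses in OlaR cells, 1 for the OlaR interaction and 7 for the olaparib interaction. In MDA-MB-468 cells they were 0, 0, 4, 0, 1, 0, 1, 0, 0, 0 and 1 in the same order, and 8 for the difference between the lines. These counts are smaller by construction of the limit. In fits of the compared conditions alone, which hold fewer libraries, the lower dose on top of olaparib gave 2 genes in SUM1315 cells and 1 in the MDA-MB-468 line, and in OlaR cells 0 and 1. The lower dose in SUM1315 OlaR cells gave 0 genes with voom and 1 with edgeR, where limma on the adjusted counts gave 4. In MDA-MB-468 cells voom gave 12 and DESeq2 11 genes for the lower dose on top of olaparib in place of 7, and voom 1 for it in OlaR cells in place of 3. For these the cause was not tested.

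Leaving out 1 library gave, in SUM1315 cells, 3 to 6 and 7 to 12 genes for the lower and higher dose on top of olaparib, 0 to 3 for olaparib on top of the higher dose, 1 to 2 and 9 to 14 for the doses in OlaR cells and 2 to 4 for the OlaR interaction. In MDA-MB-468 cells it gave 15 to 20 for the higher dose on top of olaparib, 5 to 7 for olaparib on top of the higher dose, 1 to 3 and 5 to 8 for the doses in OlaR cells and 7 to 12 for the OlaR interaction. Of 834 named values without 1 library, 767 kept their side of the threshold, 65 lost it and 2 gained it. Named values that lost their call numbered 17 in fits of the compared conditions alone, 7 with voom, 6 without a filter, 4 with edgeR and 3 with DESeq2.

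Libraries with the same replicate number showed no strong shared deviation (correlations of -0.0977 to 0.163 in SUM1315 and -0.0468 to 0.0426 in MDA-MB-468 cells). Pairs with different numbers were not compared, so that these values cannot tell whether libraries were prepared in matched sets. With the replicate number as a block the counts at the higher CDDP dose were 32 in SUM1315 cells and 25 in the MDA-MB-468 line, and RAD51B at the lower dose (adjusted p = 0.0515) and RAD51AP1 at the lower dose in OlaR cells (adjusted p = 0.0543), both in SUM1315, passed no longer. The block moved no count of changed genes by more than 2. OlaR libraries were shallower, with 2070301 to 4676284 reads against 4977284 to 9268162 in parental cells, which limits what could be detected in them.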

Other observations

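The 2 genes that fell with the higher CDDP dose in both OlaR lines, RAD51B and FANCC, are also the 2 of the 43 genes with the longest spans, 863 kb (chr14:67819779-68683096) and 219 kb (chr9:95099054-95317709, GRCh38.p14 by RefSeq). They are the only members over 200 kb, a limit chosen after these values were seen. Among all genes with a known span, those over 200 kb fell with the higher dose in 39.9% of 902 cases in SUM1315 OlaR cells, against 7.35% of shorter genes, with a median log2 fold change of -0.50 against 0.02. In MDA-MB-468 OlaR cells they fell in 54.9% of 796 cases against 8.4%, with medians of -0.61 and 0.02. With CDDP alone in parental cells the shares were 53.8% against 19.5% in SUM1315 and 33.7% against 10.5% in MDA-MB-468 cells. FANCC was not among the genes that fell there, and BRIP1 and FANCB, which each span 184 kb, did not pass the test downward in any of the 9 contrasts of either line. When the higher dose was added to olaparib in parental cells, the shares were 6.87% against 3.94% in SUM1315 and 14.2% against 13.1% in MDA-MB-468 cells. Whether span had a part in the falls of RAD51B and FANCC was not tested.

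Of the further pathway genes, BABAM2, a subunit of the BRCA1-A complex, and SPIDR, a scaffold of recombination, also fell with the higher CDDP dose in both OlaR lines by limma. In SUM1315 OlaR cells 7 of the 36 tested rose (19.4%) and 2 fell (5.56%), against 7.13% and 9.61% of all genes. In MDA-MB-468 OlaR cells 8 of 35 rose (22.9%) and 2 fell (5.71%), against 7.43% and 11.2%. The share that fell was thus below that of all genes in both lines. BABAM2 went from a mean of 238 to 89.1 adjusted read counts in SUM1315 and from 115 to 50.1 in MDA-MB-468 OlaR cells. SPIDR went from 107 to 52.7 and from 97.4 to 50.8.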
